A study of Mus musculus with 12 samples.

Results

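Regulatory and conventional T cells of wild-type (WT) mice were compared by sequencing of polyadenylated RNA, with 3 libraries of each. These 6 libraries, of 12 in the series, are all those labelled WT, and all genes were examined. The other 6 come from mice without Coro1a, the gene for the actin-binding protein coronin 1A, and entered only 1 check that shared the estimate of spread. The labels give genotype and cell type, and no strain, age, sex, treatment, organ or sorting scheme is given in the sources used here. Sex-linked genes, given below, showed both sexes within each group, so the libraries of a group did not all come from 1 mouse. Whether every replicate came from a different mouse is not stated. The p-values therefore compare groups against library-to-library spread, part of which may be technical.

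Regulatory T cells are CD4 T cells that restrain immune responses, and the transcription factor Foxp3 is required for their development and function. They carry the high-affinity IL-2 receptor and inhibitory receptors such as Ctla4, and make little IL-2 themselves. Conventional T cells lack this programme, and those that have not met antigen recirculate through lymphoid organs with high levels of Tcf7, Lef1, Il7r and Ccr7.

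Reads assigned to genes numbered 30942478 to 32726975 in the conventional and 19686870 to 31673231 in the regulatory libraries, with regulatory replicate 1 the lowest. Genes of the mitochondrial genome took up 2.25 ± 0.0971% of gene counts in conventional and 7.28 ± 1.40% in regulatory libraries (SD, n = 3). Reads that mapped to several places were 10.99 ± 0.536% and 18.97 ± 1.15% of mapped reads. Transcripts of Xist, which is made in female cells, and of 4 Y-linked genes showed that both sexes were present. Conventional replicates 1 and 2 held 1341 and 1162 CPM (reads per 1000000 counted) of Xist, against 0.428 CPM in conventional replicate 3, 1.22 CPM in regulatory replicate 1 and 0.0947 CPM in regulatory replicate 2. Regulatory replicate 3 held 753 CPM of Xist together with 19.9 CPM of the Y-linked genes, which reached 516 CPM in conventional replicate 3. Without regulatory replicate 3, 5598 genes were called higher and 5083 lower, against 5745 and 4788 with all 6 libraries.

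Both labels were checked against defining markers. T cell receptor genes were abundant in every library and Foxp3 separated the groups, as given below. The regulatory libraries also held abundant B cell transcripts. Fcer2a, the low-affinity IgE receptor of mature B cells, was at 0.0319, 0.0619 and 0.0609 CPM in the conventional and 236, 238 and 335 CPM in the regulatory libraries. The 29 measured B cell genes summed to 421 to 455 CPM in conventional and 7638 to 10297 CPM in regulatory libraries, and Ms4a1, Fcer2a and Cr2 were each at 0.155 CPM or less in the conventional libraries. Per kilobase of annotated exon in the regulatory libraries, Cd79a was at 462 CPM, above Foxp3 at 111 CPM and Cd3e at 72.8 CPM. The part of these other cells in the differences described here was not tested. Some log2 fold changes are also given after scaling to T cell genes. That scaling moves all genes of a library together and does not remove transcripts of other cells. Under it the median log2 fold change of the B cell list went from 8.83 to 9.45.

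Of 14714 genes tested, 5745 (39.0%) were called higher and 4788 (32.5%) lower in regulatory libraries, 71.6% in either direction, at an adjusted p below 0.05 by edgeR's quasi-likelihood test with Benjamini-Hochberg adjustment. The call came with a change of at least 2-fold for 3203 genes higher (21.8%) and 1436 lower (9.76%). Of these 3203 genes, 1893 averaged under 1 CPM in conventional libraries, and 380 averaged 10 CPM or more. Among the 1436, 610 averaged 10 CPM or more in conventional libraries. The 3 libraries of each group did not overlap for 11319 genes (76.9%). The main scaling was TMM, which assumes that most genes are unchanged. A scaling that set the summed level of Cd3d, Cd3e, Cd3g, Cd5, Cd6 and Lat equal in all libraries moved the median log2 fold change of all genes from 0.07 to 0.66. It called 8791 genes (59.7%) higher and 1030 (7.00%) lower, which included every gene called higher and 1030 of the 4788 called lower under TMM. In bulk RNA, fewer cells of a type and less RNA per cell cannot be told apart.

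**Figure D1:**
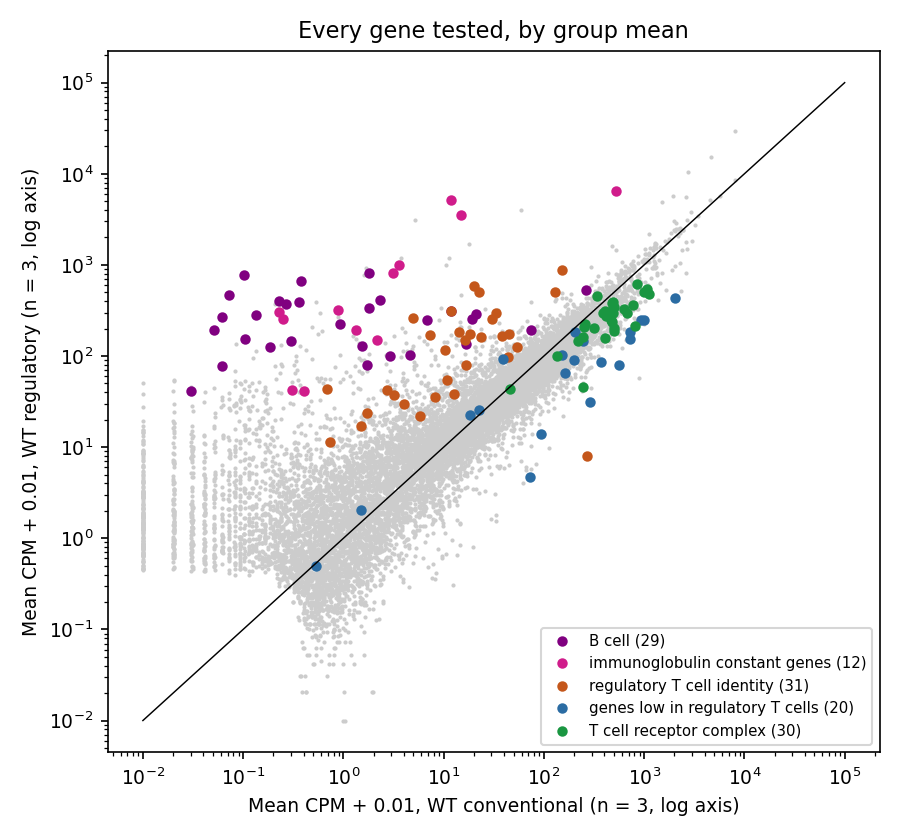
Mean CPM plus 0.01 of each of 14714 genes in WT conventional (x axis) and WT regulatory (y axis) libraries, both on log axes, n = 3 per group, with the members of 5 lists coloured and a line of equal levels. B cell and immunoglobulin genes sit far above the line, regulatory identity genes above it with 1 exception, and most T cell receptor genes just below it.

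The genes that define regulatory T cells were higher in the regulatory libraries. Foxp3 (ENSMUSG00000039521, chromosome X, 7573644 to 7595245 of GRCm38) was at 25.6, 19.9 and 21.96 CPM in conventional and 567, 479 and 478 CPM in regulatory libraries. All regulatory values were far above all conventional ones, and the conventional libraries were not free of the transcript. Foxp3 changed by 4.50 (SE 0.12, adjusted p = 1.42e-07) in log2, and 5.08 with T cell gene scaling. Within the libraries with more Y-linked than Xist reads it was 4.51, and within those with more Xist 4.39. Ikzf2, or Helios, a zinc finger factor of most thymus-derived regulatory cells, was at 47.99, 27.02 and 25.6 CPM in conventional and 292, 305 and 294 CPM in regulatory libraries, without overlap, and changed by 3.15 (SE 0.23, adjusted p = 1.04e-05). Ikzf4, or Eos, a partner of Foxp3 in gene repression, rose by 2.26 in log2. Of a list of regulatory identity genes, 30 of 31 measured members were called higher and 1 lower, with a median log2 fold change of 3.15, beside 0.07 for all genes, of which 39.0% were higher and 32.5% lower. The list's median was 3.73 after T cell gene scaling, with 30 called higher and 1 lower. It shares 1 member, Swap70, with the lists of other cells.

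**Figure D2:**
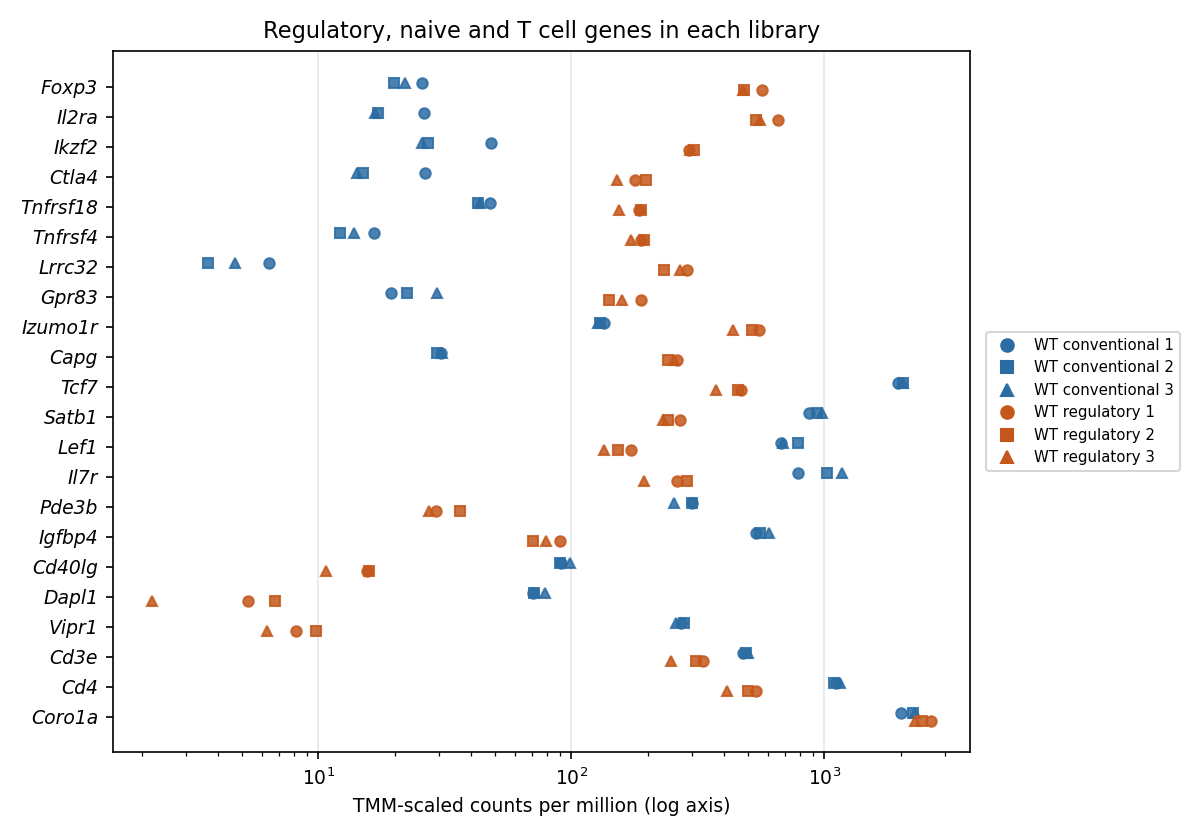
TMM-scaled CPM (x axis, log scale) of 22 regulatory, naive and T cell genes in each of the 6 libraries, with blue for conventional, orange for regulatory and a symbol for the replicate number. The groups are separate for Foxp3 through Cd4, and they meet at Coro1a.

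Receptors for IL-2 rose and the receptor for IL-7 fell. Il2ra, the alpha chain of the IL-2 receptor, was at 26.1, 17.2 and 16.7 CPM in conventional and 653, 536 and 556 CPM in regulatory libraries. The conventional values were uneven, with replicate 1 the highest, yet all were far under the regulatory ones. Il2ra changed by 4.86 (SE 0.19, adjusted p = 6.27e-07). Il2rb, the beta chain, was at 153 ± 48.4 CPM in conventional and 871 ± 116 CPM in regulatory libraries (SD, n = 3) and rose by 2.51 in log2. Socs2 and Cish, feedback inhibitors that STAT5 induces, rose by 3.57 and 2.33. Il7r, the chain that binds IL-7, was at 786, 1023 and 1170.3 CPM in conventional and 262, 285 and 193 CPM in regulatory libraries. Its groups did not overlap, and it changed by -2.01 (SE 0.18, adjusted p = 3.68e-05), or -1.43 with T cell gene scaling. In the common gamma chain list 8 of 22 measured members were called higher and 8 lower, beside 39.0% and 32.5% of all genes. The list's median log2 fold change was -0.06, or 0.53 after T cell gene scaling, with 15 called higher and 1 lower. Il2, the cytokine itself, was scarce in both groups, at 0.519 ± 0.235 CPM in conventional and 0.484 ± 0.422 CPM in regulatory libraries, and was not called.

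Several inhibitory and costimulatory receptors of the identity list rose as well, while the wider list of costimulators and TNF receptors moved in both directions. Of that wider list, 17 of 30 measured members were called higher and 9 lower, with a median log2 fold change of 0.45, beside 39.0% and 32.5% of all genes, or 1.06 after T cell gene scaling, with 21 called higher and 3 lower. It shares Tnfrsf13c and Tnfrsf17 with the lists of other cells. Its higher calls included Tnfrsf13c (8.97), Cd40 (8.28) and Icosl (3.60), and the part of other cells in them was not tested. Ctla4, which takes B7 ligands from antigen-presenting cells, was at 26.4, 14.9 and 14.2 CPM in conventional and 178, 197 and 151 CPM in regulatory libraries, without overlap. It changed by 3.24 (SE 0.24, adjusted p = 1.12e-05). Lrrc32, or GARP, which holds latent TGF-beta at the surface, went from 4.89 to 263 CPM on average and rose by 5.75. The TNF receptors Tnfrsf4 (OX40), Tnfrsf9 (4-1BB) and Tnfrsf18 (GITR) rose by 3.70, 3.50 and 1.98. Nrp1, a receptor found on thymus-derived regulatory cells, rose by 3.21, and Tigit, an inhibitory receptor, by 2.92. Itgae, the integrin chain CD103, and Itgb8, which activates TGF-beta, rose by 3.95 and 3.78. Entpd1 and Nt5e, the ectoenzymes CD39 and CD73 that make adenosine from ATP, rose by 2.33 and 1.22. Izumo1r, the folate receptor FR4, was already at 134, 129 and 127 CPM in conventional libraries and reached 551, 519 and 437 CPM in regulatory ones. Its change of 1.95 (SE 0.09, adjusted p = 1.36e-06) was below the list's median.

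The highest log2 fold change in the list belonged to Penk, the precursor of enkephalin peptides. It was at 0.765, 0.402 and 0.853 CPM in conventional and 39.8, 46.2 and 44.4 CPM in regulatory libraries and changed by 6.0 (SE 0.20, adjusted p = 2.90e-07). Gpr83, an orphan receptor, Capg, an actin-capping protein, and Ebi3, a subunit of IL-35, rose by 2.77, 3.06 and 3.49. The 1 member that fell was Vipr1, a receptor for vasoactive intestinal peptide that signals through cyclic AMP. Vipr1 was at 271, 279 and 259.9 CPM in conventional and 8.13, 9.79 and 6.28 CPM in regulatory libraries. The groups were wide apart, and Vipr1 changed by -5.06 (SE 0.14, adjusted p = 1.49e-07).

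Genes of activated, or effector, regulatory cells rose in part. Of the 25 measured, 19 were called higher and 1 lower, beside 39.0% and 32.5% of all genes. Their median log2 fold change was 1.92, or 2.52 after T cell gene scaling, with 23 called higher and 0 lower. Irf4, a transcription factor of effector differentiation, was at 16.6, 10.3 and 12.4 CPM in conventional and 132, 129 and 132 CPM in regulatory libraries and changed by 3.32 (SE 0.15, adjusted p = 1.35e-06). Irf4 is also made by plasma cells and stands in that list. The effector list shares Ccr2, Gzmb, Irf4 and Prdm1 with the lists of other cells. The part of other cells in its calls was not tested. Klrg1, an inhibitory lectin of terminally differentiated cells, rose by 4.15 from 1.95 ± 0.918 CPM to 34.6 ± 9.93 CPM (SD, n = 3). Ccr8, a chemokine receptor, and Il1rl1, the IL-33 receptor, rose by 3.73 and 3.05. Il10, the inhibitory cytokine, was scarce at 0.191, 0.0928 and 0.0914 CPM in conventional and 0.845, 2.10 and 1.49 CPM in regulatory libraries, and rose by 3.55 (SE 0.49, adjusted p = 2.94e-04). Pdcd1 (PD-1), Lag3 and Havcr2 (TIM-3), all inhibitory receptors, rose by 2.24, 2.23 and 2.78. The costimulator Icos was at 101, 71.00 and 77.2 CPM in conventional and 93.4, 113 and 72.7 CPM in regulatory libraries, which overlapped, and it was not called. Ccr2, Cxcr3, Prdm1 and Rora also were not called. Gata3, a factor of type 2 helper cells, was called lower at -0.18, with 0.42 under T cell gene scaling, where it was not called. Its call was also lost without conventional replicate 1 or 2 or regulatory replicate 1 or 2 (edgeR adjusted p up to 0.128), under the replicate block (adjusted p = 0.0858) and with a term for sex (adjusted p = 0.0528).

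Genes of naive T cells were lower in the regulatory libraries. Tcf7, the factor TCF-1, was at 1947, 2041 and 2041 CPM in conventional and 466, 455 and 373 CPM in regulatory libraries. No regulatory library came near a conventional one. Tcf7 changed by -2.22 (SE 0.11, adjusted p = 1.59e-06), and by -1.64 with T cell gene scaling. Its relative Lef1 and the chromatin organiser Satb1 fell by 2.23 and 1.91 in log2. In the list of genes known to be low in regulatory cells, 2 of 20 measured members were called higher and 14 lower. Of all genes, 39.0% were called higher and 32.5% lower. The list's median log2 fold change was -1.62, or -1.02 after T cell gene scaling, with 5 called higher and 12 lower. The 2 higher calls fell to 1 without conventional replicate 2 or 3 or regulatory replicate 1 or 3. Pde3b, a phosphodiesterase that degrades cyclic AMP and that Foxp3 represses, was at 299.8, 301 and 255 CPM in conventional and 29.2, 36.4 and 27.3 CPM in regulatory libraries. It fell by 3.20 in log2, with the groups far apart. Cd40lg, the ligand with which helper T cells license antigen-presenting cells, Igfbp4, a binding protein for insulin-like growth factors, and Dapl1 fell by 2.74, 2.82 and 3.96. Id3, an inhibitor of E proteins, went the other way, at 38.6, 35.9 and 42.1 CPM in conventional and 98.5, 81.96 and 100.3 CPM in regulatory libraries with a change of 1.27 (SE 0.10, adjusted p = 1.32e-05).

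In the wider list of naive and recirculating T cell genes, 2 of 30 measured members were called higher and 26 lower. Of all genes, 39.0% were called higher and 32.5% lower. The list's median log2 fold change was -0.79, or -0.22 after T cell gene scaling, with 4 called higher and 12 lower. Dgka, a lipid kinase that damps signals from the T cell receptor, was at 1665, 1642 and 1669 CPM in conventional and 555, 553 and 489 CPM in regulatory libraries and changed by -1.64 (SE 0.08, adjusted p = 2.21e-06). Ccr7, the receptor for lymph node entry, fell by 0.99 from 581 ± 24.8 CPM to 293 ± 34.96 CPM (SD, n = 3). Bcl11b, which maintains T cell identity, fell by 1.29. The sphingosine receptor S1pr1 fell by 0.72 under TMM and was at -0.11 with T cell gene scaling, where it was not called.

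Other genes outside these lists also were much lower. Als2cl was at 870.4, 882 and 891 CPM in conventional and 61.5, 59.00 and 52.3 CPM in regulatory libraries and changed by -3.94 (SE 0.08, adjusted p = 6.05e-08). Among genes with 10 CPM or more in conventional libraries, the lowest log2 fold changes were those of Rnf32 (-5.26), Vipr1, Cnga1 (-4.65), Lypd6b (-4.46) and Gm26551 (-4.30). Cnga1 encodes a channel opened by cyclic nucleotides, and it was at 17.3, 22.1 and 19.6 CPM in conventional and 0.845, 0.784 and 0.730 CPM in regulatory libraries. The next in order were Cyp2s1, a cytochrome P450 (-4.19), Lrrc75b (-4.15), Il1rl2, the IL-36 receptor (-4.13), and Ntrk3, a neurotrophin receptor (-3.99).

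The T cell receptor and its signalling chain were moderately lower under TMM. In this list 1 of 30 measured members were called higher and 28 lower, beside 39.0% and 32.5% of all genes. Its median log2 fold change was -0.62. T cell gene scaling sets the sum of 6 members of this group equal, so values near 0 after it follow from its construction, and the list was then at -0.05 after T cell gene scaling, with 3 called higher and 12 lower. Cd3e, a signalling chain of the receptor, was at 476, 490.0 and 498 CPM in conventional and 331, 311 and 248 CPM in regulatory libraries. Regulatory replicate 3 was the lowest, and the groups did not overlap. Cd3e changed by -0.72 (SE 0.10, adjusted p = 4.17e-04), and by -0.14 with T cell gene scaling, where it was not called. Cd3d (-0.38), Cd3g (-0.51), Cd5 (-0.31) and Cd6 (-0.32) were called lower and turned to 0.19, 0.06, 0.28 and 0.26, and these genes with Cd3e and Lat set that scaling. The call of Cd3d was lost without conventional replicate 1, 2 or 3 (adjusted p up to 0.112, edgeR), and that of Cd6 without conventional replicate 1 or 3 (up to 0.0625). Cd4, the coreceptor, was at 1115, 1087 and 1148 CPM in conventional and 535, 498 and 413 CPM in regulatory libraries and stayed lower, at -1.21 (SE 0.10, adjusted p = 2.60e-05) and -0.63. Themis, an adaptor of thymic selection, had a larger change. It fell by 2.43 in log2, and was at -1.85 with T cell gene scaling. Cd28, the main costimulator, fell by 1.39. The adhesion receptor Cd2 was the 1 member called higher, at 0.45. Coro1a, the gene removed in the rest of the series, was at 2014, 2241 and 2281 CPM in conventional and 2644, 2429 and 2277 CPM in regulatory libraries, with overlap, and was not called at 0.17 (SE 0.11, adjusted p = 0.18).

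Second messenger pathways changed in both directions. In the cyclic AMP list 11 of 32 measured members were called higher and 16 lower, beside 39.0% and 32.5% of all genes. The list's median log2 fold change was -0.13, or 0.47 after T cell gene scaling, with 16 called higher and 6 lower. Adcy6 and Adcy7, adenylyl cyclases that make cyclic AMP, fell by 1.75 and 1.38, and Rapgef4, a cyclic AMP receptor, by 2.0. Its relative Rapgef3 rose by 4.31 from 0.416 ± 0.110 CPM to 8.27 ± 2.82 CPM (SD, n = 3). The prostaglandin receptor Ptger2 rose by 1.95. In the calcium list 9 of 31 measured members were called higher and 16 lower, beside 39.0% and 32.5% of all genes. Its median log2 fold change was -0.17, or 0.42 after T cell gene scaling, with 16 called higher and 5 lower. Plcg1, the phospholipase of T cell receptors, was at 529, 487 and 496 CPM in conventional and 213, 206 and 191 CPM in regulatory libraries and fell by 1.31. Plcg2, the phospholipase of B cell receptors, was at 4.24, 5.14 and 3.08 CPM in conventional and 156, 148 and 242 CPM in regulatory libraries and rose by 5.46. Nfatc2, Orai2 and Stim1, of calcium entry and its response, fell by 1.15, 1.38 and 1.08.

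Chemokine receptors and integrins moved in both directions under TMM. Of this list, 17 of 37 measured members were called higher and 10 lower, with a median log2 fold change of 0.61, beside 39.0% and 32.5% of all genes, or 1.16 after T cell gene scaling, with 25 called higher and 2 lower. Ccr6, shared by regulatory, T helper 17 and B cells, was at 3.57, 2.66 and 1.28 CPM in conventional and 39.1, 41.4 and 41.1 CPM in regulatory libraries and rose by 4.02. Cxcr5, the receptor for entry to B cell follicles, rose by 3.75 and is also in the B cell list. The list also shares Ccr2, Ccr9, Itga2, Itgam and Itgax with the lists of other cells. Its highest change was that of Ackr3 (12.18), and S1pr3 and Ccr1 rose by 6.44 and 5.09. The part of other cells in these changes was not tested. Itgb3, an integrin chain, fell from 233 ± 8.43 CPM to 59.1 ± 4.29 CPM (SD, n = 3), by 1.98. In the helper list 10 of 23 measured members were called higher and 2 lower, with a median log2 fold change of 0.44, beside 39.0% and 32.5% of all genes, or 1.02 after T cell gene scaling, with 16 called higher and 0 lower. The 2 lower calls fell to 0 without conventional replicate 1, regulatory replicate 1 or regulatory replicate 2, and to 1 without any other library. Ahr, a ligand-activated factor, rose by 1.86, while Tbx21, Ifng, Stat4 and Il4 were not called. The helper list shares Cxcr5, Il23r and Il4 with the lists of other cells.

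B cell genes had the highest median of the 37 lists. Of the B cell list, 29 of 29 measured members were called higher and 0 lower, beside 39.0% and 32.5% of all genes. Its median log2 fold change was 8.83. Ms4a1, or CD20, was at 0.0638, 0.0619 and 0.152 CPM in conventional and 694, 676 and 968 CPM in regulatory libraries, and its log2 fold change of 12.97 (SE 0.29, adjusted p = 6.05e-08) rests on 9 conventional reads in all. Cd79a, the signalling chain of the B cell receptor, was at 0.446, 0.433 and 0.213 CPM in conventional and 605, 580.4 and 834 CPM in regulatory libraries and rose by 10.84. Pax5 and Ebf1, factors that specify B cells, each rose by 10.45, with Ebf1 at 11.94 without conventional replicate 2, and Syk, the kinase of that receptor, by 4.97. Fcer2a, Cr2 and Fcrla rose by 12.23, 11.09 and 12.04, with Fcrla at 13.23 without conventional replicate 2. Regulatory replicate 3 held the highest level of 28 of the 29 genes.

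**Figure D3:**
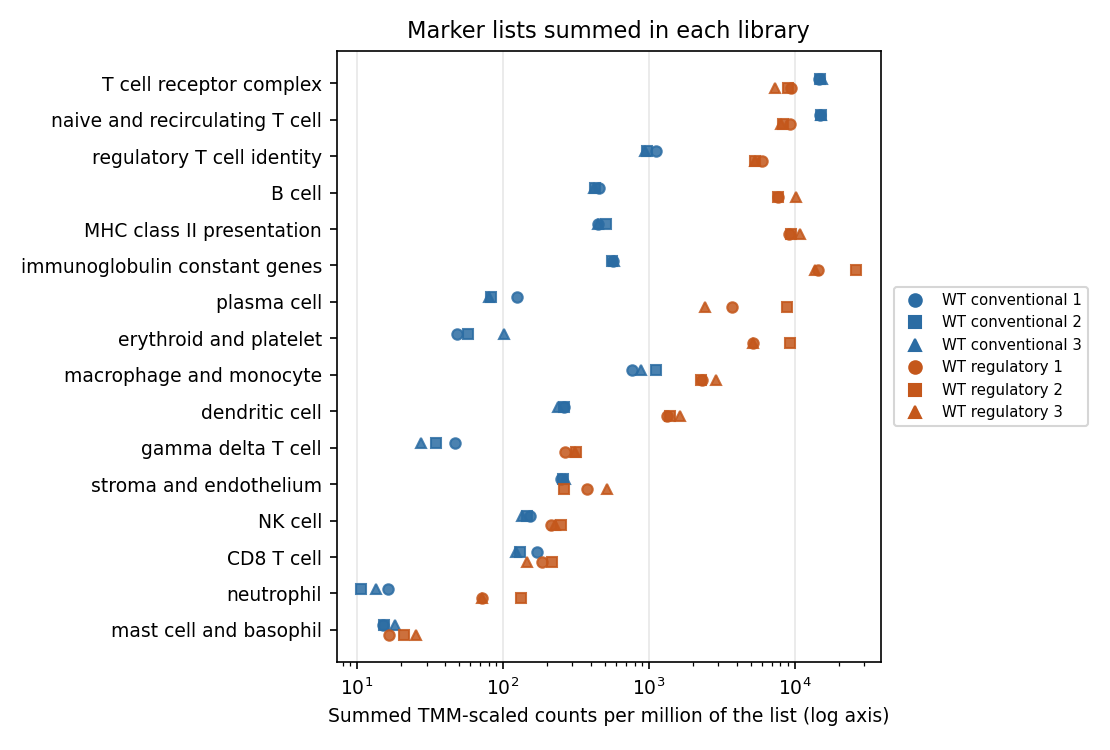
Summed TMM-scaled CPM (x axis, log scale) of 16 marker lists in each of the 6 libraries, with blue for conventional, orange for regulatory and a symbol for the replicate number. B cell, MHC class II, immunoglobulin, plasma cell and erythroid lists are far higher in the regulatory libraries, and the T cell receptor list is lower.

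MHC class II genes rose together. Their promoters hold a CCAAT-containing box among the conserved elements that antigen-presenting cells use, and 4 windows are shown for that reason. Each is the 250 bases before the start of the gene in RefSeq (GRCm38.p6), 5′ to 3′ on the gene's strand, with capitals on GATTGG or its reverse complement CCAATC.
H2-Aa, chr17:34287824-34288073, minus strand: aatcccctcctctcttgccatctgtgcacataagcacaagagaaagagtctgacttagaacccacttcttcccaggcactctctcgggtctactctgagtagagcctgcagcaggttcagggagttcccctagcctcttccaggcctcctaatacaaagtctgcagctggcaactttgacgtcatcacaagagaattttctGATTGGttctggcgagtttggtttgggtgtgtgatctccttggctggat
H2-Eb1, chr17:34305617-34305866, plus strand: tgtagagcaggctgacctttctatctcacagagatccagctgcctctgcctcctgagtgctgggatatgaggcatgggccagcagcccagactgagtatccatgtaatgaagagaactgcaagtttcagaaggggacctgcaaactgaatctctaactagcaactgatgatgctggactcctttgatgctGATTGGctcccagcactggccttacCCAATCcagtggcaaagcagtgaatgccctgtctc
H2-Oa, chr17:34092129-34092378, plus strand: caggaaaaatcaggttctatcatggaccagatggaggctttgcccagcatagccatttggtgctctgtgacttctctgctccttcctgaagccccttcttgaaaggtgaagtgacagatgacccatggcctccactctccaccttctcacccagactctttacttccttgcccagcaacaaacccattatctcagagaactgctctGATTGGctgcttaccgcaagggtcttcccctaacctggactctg
H2-Ob, chr17:34238655-34238904, plus strand: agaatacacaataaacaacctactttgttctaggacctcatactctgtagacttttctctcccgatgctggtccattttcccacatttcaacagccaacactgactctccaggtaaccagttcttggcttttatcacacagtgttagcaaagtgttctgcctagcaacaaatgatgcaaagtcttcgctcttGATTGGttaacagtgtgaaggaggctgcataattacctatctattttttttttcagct
The letters GATTGG were searched on both strands of each gene's whole promoter windows, which extend beyond the 250 bases shown. They lay in 8 of 11 MHC class II genes with a window (72.7%) and in 23.2% of 10502 tested genes. Among all 27025 genes with a window they lay in 18.2%. The octamer core TGCAAAT lay in 4 of 22 B cell genes with a window (18.2%) and in 3.41% of tested genes. The forkhead core TGTTTAC lay in 1 of 22 regulatory identity genes with a window (4.55%) and in 3.1% of tested genes. Among genes of the list low in regulatory T cells it lay in 2 of 15 (13.3%). A match describes letters, not a bound site.

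Of the MHC class II list, 14 of 14 measured members were called higher and 0 lower, beside 39.0% and 32.5% of all genes. Its median log2 fold change was 5.35. H2-Aa, an antigen-presenting chain, was at 16.9, 22.1 and 14.7 CPM in conventional and 1626, 1668 and 1806 CPM in regulatory libraries and changed by 6.57 (SE 0.18, adjusted p = 1.42e-07). H2-Eb1 rose by 6.72, and H2-Oa and H2-Ob, the chains of a peptide-loading modulator found in B cells, by 4.62 and 2.40. Ciita, the coactivator that switches these genes on, was at 1.59, 1.55 and 0.792 CPM in conventional and 148, 123 and 192 CPM in regulatory libraries and rose by 6.88. Regulatory replicate 3 was the highest for 13 of 14, as for the B cell genes.

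Immunoglobulin genes followed with another order of libraries. All 12 measured constant genes, counted with Jchain, were higher, by a median of 7.95. Igkc, the kappa constant chain, was at 17.8, 9.01 and 8.62 CPM in conventional and 3862, 8049 and 3506 CPM in regulatory libraries and changed by 8.77 (SE 0.52, adjusted p = 4.13e-06). Igha, the constant chain of IgA, was at 34.5, 6.93 and 3.02 CPM in conventional and 2507, 6553 and 1508 CPM in regulatory libraries, with regulatory replicate 2 far above the others. It changed by 7.90 (SE 1.09, adjusted p = 3.05e-04), by 9.46 without conventional replicate 1 and by 7.09 without regulatory replicate 2. Ighm was at 498, 532 and 553 CPM even in conventional libraries. The V segments Ighv1-81 and Igkv6-32 had no read in any conventional library and were at least 1617-fold and 1242-fold higher in CPM, against a floor of 3 reads over the group. Reads of V segments may be shared with close copies, so these values are uncertain. In the plasma cell list 10 of 11 were called higher, beside 39.0% of all genes, and 10 were highest in regulatory replicate 2.

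Markers of several further cells were higher, and those of others were not. Hbb-bs, a beta globin, was at 3.19, 1.92 and 10.3 CPM in conventional and 2424, 4465 and 2372 CPM in regulatory libraries, and rose by 9.23 (SE 0.70, adjusted p = 1.35e-05). Globin copies share reads, but Alas2, an enzyme of erythroid haem synthesis, rose by 8.97 as well. Without conventional replicate 3, Hbb-bs was at 10.23 and Alas2 at 10.16. In the erythroid and platelet list 10 were higher and 6 lower of 17, and the lower ones were platelet genes such as Ppbp (-1.71) and Itga2b (-1.36). These lower calls were not firm, at 3 without conventional replicate 2, 2 without conventional replicate 3, 2 without regulatory replicate 2 and 1 with T cell gene scaling. Of macrophage and monocyte genes 24 of 26 were called higher (list median 1.35), of dendritic cell genes 18 of 19 (list median 3.83), and of neutrophil genes 13 of 16 (list median 4.17), with 2 neutrophil genes, Mpo and Elane, called lower, or 1 without conventional replicate 1 or 3. The dendritic cell list shares H2-DMb2 (8.26) with the MHC class II list, and Ly6d had its highest change, at 10.85. Regulatory replicate 3 was the highest for 14 of its 19 genes, as for most B cell genes. How much of this list came from B cells was not tested. Of NK cell genes 9 of 20 were called higher and 2 lower (median 0.44), of mast cell and basophil genes 3 of 7 higher and 2 lower (median 0.06). Of CD8 T cell genes 3 of 7 were called higher, or 5 without conventional replicate 1, and 1 lower. Beside these counts, 39.0% of all genes tested were called higher and 32.5% lower. The macrophage list was also present in conventional libraries, where it summed to 770.2 to 1113 CPM against 2284 to 2895 CPM. Cldn5, a tight junction gene of endothelium, was at 0, 0.0309 and 0 CPM in conventional and 13.9, 7.18 and 28.6 CPM in regulatory libraries. Cd8a was at 0.128, 0.279 and 0.0914 CPM in conventional and 24.3, 27.04 and 19.9 CPM in regulatory libraries, while Cd8b1, the other chain of the CD8 coreceptor, was at 18.02, 19.7 and 20.7 CPM in conventional and 29.9, 28.9 and 23.00 CPM in regulatory ones. Cd8a rose by 7.12 (SE 0.28, adjusted p = 6.22e-07) and Cd8b1 by 0.48.

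The 3 regulatory libraries differed among themselves along these lists. Over all genes tested, 33.3% were highest in replicate 1, 30.2% in replicate 2 and 36.6% in replicate 3. For the T cell receptor list the numbers of members highest in replicates 1, 2 and 3 were 24, 5 and 1, and for cytosolic ribosomal proteins 74, 10 and 0. For effector regulatory genes they were 1, 19 and 5, and for gamma delta T cell genes 0, 8 and 1. The identity genes were spread more evenly, at 13, 11 and 7. Replicate 3, with the most B cell transcripts, was lowest for 27 of 30 T cell receptor genes.

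**Figure D4:**
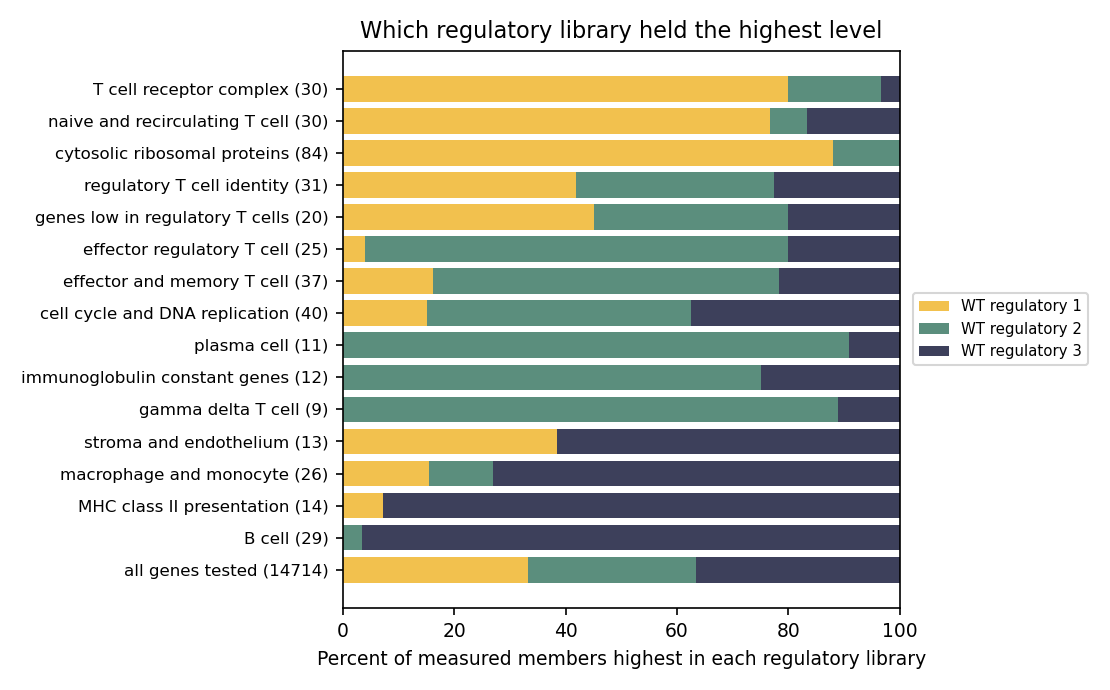
Share of the measured members of 15 lists, and of all genes tested, that were highest in each of the 3 regulatory libraries (x axis, percent of members, stacked to 100). B cell and MHC class II genes are mostly highest in replicate 3, plasma cell and effector genes in replicate 2, and T cell receptor and ribosomal genes in replicate 1.

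Genes of division and energy metabolism were higher in the regulatory libraries. Of the cell cycle list, 34 of 40 measured members were called higher and 3 lower, with a median log2 fold change of 1.66, or 2.28 with T cell gene scaling. Mki67, a nuclear protein of dividing cells, was at 36.96, 22.9 and 30.2 CPM in conventional and 87.8, 157 and 141 CPM in regulatory libraries and changed by 2.10 (SE 0.24, adjusted p = 1.07e-04). Ccnd1, the D1 cyclin, and Cdk1, the mitotic kinase, rose by 3.22 and 2.71. Ccnd2 and Ccnd3, the cyclins abundant in lymphocytes, were called lower at -0.50 and -0.71, and with T cell gene scaling they were at 0.09 and -0.11 and not called. All 7 measured mitochondrially encoded genes, of 13, rose by a median of 1.70. Of 79 nuclear genes of oxidative phosphorylation 69 were called higher, with a list median of 0.53. Ribosomal protein genes were called higher for 47 of 84, with a median of 0.31, or for 81 with T cell gene scaling. The TMM count was 28 without conventional replicate 1 and 27 without regulatory replicate 1, and 68 without regulatory replicate 3. Beside the counts of these lists, 39.0% of all genes were called higher and 32.5% lower under TMM. With T cell gene scaling these shares were 59.7% and 7.00%. Regulatory replicate 1 was the lowest of the 3 for 31 of 40 cell cycle genes. The markers of other cells given above moved with these lists, and their part in them was not tested.

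Interferon genes moved in both directions under TMM. In the interferon list 14 of 46 measured members were called higher and 15 lower, with a median log2 fold change of -0.03, beside 39.0% and 32.5% of all genes, or 0.57 after T cell gene scaling, with 32 called higher and 3 lower. Gbp3 and Rsad2 rose by 2.69 and 2.59, while Oas2 and Slfn1 fell by 2.72 and 1.42. In the activation list 19 of 34 measured members were called higher and 6 lower, beside 39.0% and 32.5% of all genes. Its median log2 fold change was 0.48. Rgs1, a brake on chemokine receptors, was at 15.3, 12.9 and 11.2 CPM in conventional and 172, 165 and 136 CPM in regulatory libraries and rose by 3.59, whereas Fos, Junb and Cd69 were not called. The median of the amino acid and unfolded protein stress list was 0.40, or 0.99 after T cell gene scaling, with 26 called higher and 0 lower. Under TMM 20 of its 30 measured members were called higher and 5 lower, beside 39.0% and 32.5% of all genes. That lower count was 3 without conventional replicate 1 and 3 without conventional replicate 2. In the heat shock list 5 of 16 measured members were called higher and 5 lower, beside 39.0% and 32.5% of all genes. Its median log2 fold change was 0.12, or 0.72 after T cell gene scaling, with 11 called higher and 1 lower. Of the actin list, 15 of 45 measured members were called higher and 14 lower, with a median log2 fold change of 0.04, beside 39.0% and 32.5% of all genes, or 0.64 after T cell gene scaling, with 31 called higher and 1 lower. Coro2a, a relative of Coro1a, was at 26.9, 20.7 and 23.2 CPM in conventional and 205, 196 and 192 CPM in regulatory libraries and had the highest change of that list, at 3.06 (SE 0.09, adjusted p = 2.27e-07), whereas Flna, an actin crosslinker, fell by 1.13.

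**Figure D5:**
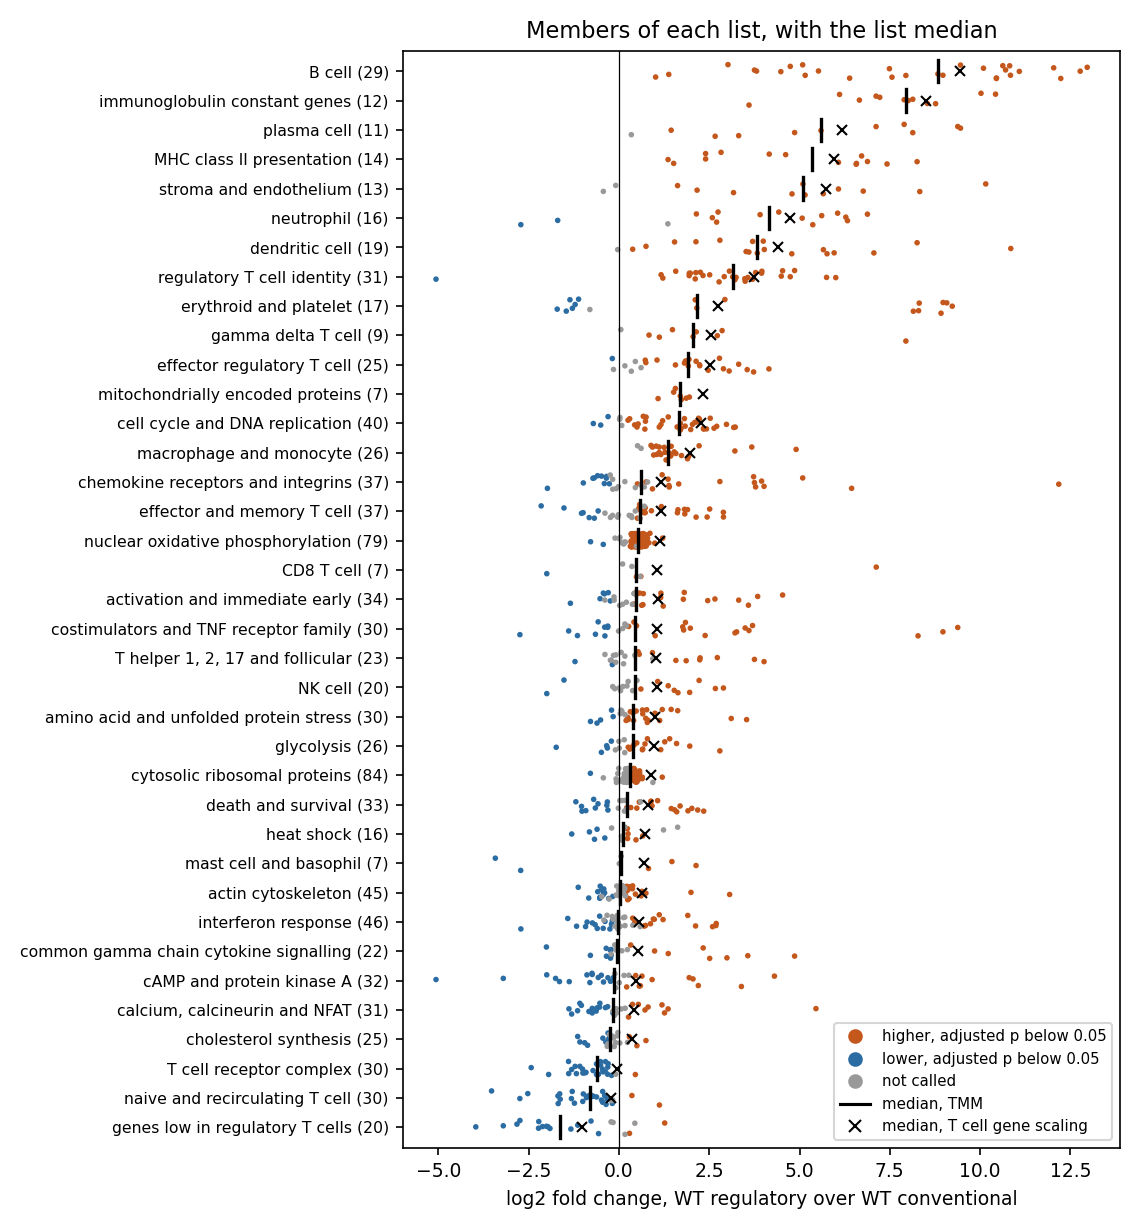
Log2 fold change, regulatory over conventional, of each measured member of 37 lists (points, coloured by call), with the list's median under TMM (bar) and under T cell gene scaling (cross). The B cell list has the highest median, 8.83, and the list of genes low in regulatory T cells the lowest, -1.62.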

How the data were processed

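The counts used here are whole reads per gene, as deposited by the authors in 1 table for 12 libraries. Per the submitters' processing notes, reads were aligned with STAR to GRCm38, and the deposited table is labelled as reverse-stranded. The annotation release is not given in the sources used here. Summary rows that name no gene were dropped. Symbols and positions came from GENCODE M21, which matched 45143 of 45706 genes. The 6 WT libraries were fitted with edgeR 4.0.16 (R 4.3.3): filterByExpr with a minimum count of 10 and total of 15, TMM, and a two-sided quasi-likelihood F test on group alone, with Benjamini-Hochberg adjustment over all genes and a threshold of 0.05. SE is the log2 fold change over the root of F. CPM values are TMM-scaled. The procedure was tested on simulated data. DESeq2 1.42.0 and limma-voom 3.58.1 were alternatives. The 37 gene lists and the comparison were chosen with earlier results of these data known. Genes were named by rule: Coro1a, Cd4 and the 6 scaling genes, the 10 highest and 10 lowest log2 fold changes among called genes with at least 1 CPM and no overlap, the 12 highest and 12 lowest with at least 10 CPM in conventional libraries, the 6 smallest p-values of each list, and the whole regulatory identity, effector and low lists. Other named genes were chosen after their values were seen. Promoter windows came from RefSeq. Some genes that meet the rule are not reported here.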

Additional observations from a re-analysis of the deposited data

How the results depend on the processing

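The calls depended most on scaling. Setting the 6 T cell genes equal gave 8791 genes higher and 1030 lower, against 5745 and 4788. It turned the log2 fold change of Ccnd2 to 0.086, Cd3d to 0.19, Cd3g to 0.060, Cd5 to 0.28, Cd6 to 0.26 and Gata3 to 0.42. It turned the list medians of common gamma chain signalling to 0.53, calcium to 0.42, cyclic AMP to 0.47 and cholesterol synthesis to 0.35. Testing only genes with 10 CPM or more in conventional libraries gave 3244 higher and 3093 lower. It turned the medians of common gamma chain signalling to 0.016, chemokine receptors and integrins to -0.059 and erythroid and platelet genes to -1.44. This filter looks at conventional libraries alone, so it leaves out genes that are low there and high in regulatory libraries. Requiring a change of over 1.5-fold gave 3369 and 1883. Leaving out 1 library in turn gave 5469 to 5656 higher and 4370 to 5083 lower, and the common gamma chain median turned to 0.0038 without conventional replicate 3 and 0.014 without regulatory replicate 3.

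With the replicate number as a replicate block, 5473 genes were higher and 4532 lower. Deviations of same-numbered libraries correlated at -0.27, -0.28 and -0.42. In each same-numbered pair, 1 library had more Xist and the other more Y-linked reads. The numbers were therefore not taken to pair the libraries. Alternatives added after the data were seen were a term for Xist or Y-linked reads, which gave 5663 and 4772, and fits within the libraries that had more Y-linked reads, 4301 and 3745, or more Xist, 5304 and 4339. In the latter the median of the CD8 T cell list turned to -0.043. In these split fits 1 group has 1 library, which is assumed to vary like the other group. Among called genes measured in both, 10504 of 10505 had the same sign in each. Both fits reuse libraries in which these genes were called, so the agreement follows in large part from that choice.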

Other observations

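Among the genes with the highest log2 fold changes were 2 outside the B cell list and the immunoglobulin segments. Ackr3, a scavenging receptor for chemokines, had no read in any conventional library and was at 14.3, 10.9 and 32.9 CPM in the regulatory ones, at least 623-fold higher against a floor of 3 reads over the group. AU021092 likewise had none and was at 12.04, 7.90 and 31.8 CPM, at least 554-fold higher. At the other end, Vwce was at 1.53, 2.20 and 2.16 CPM in conventional and 0, 0.0314 and 0 CPM in regulatory libraries, and Cxcr1, a chemokine receptor, at 1.88, 1.67 and 2.22 CPM in conventional and 0, 0 and 0.0317 CPM in regulatory libraries. Gm7420 had no read in any regulatory library and was at 1.18, 1.02 and 0.883 CPM in the conventional ones, at least 28.2-fold lower. These genes rest on few reads in the lower group, so their folds depend on the floor.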
